A study of Homo sapiens with 30 samples.

Results

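The regions described here are stretches of chromatin that were closed in human pluripotent stem cells and in ectoderm on day 1, opened on day 2 in both forms of neural ectoderm, and carried a peak in every neural population of day 4. They were chosen from the peak lists themselves. Peaks of the 10 lists on chromosomes 1 to 22 were merged where they overlapped by 1 bp or more, a list was open at a region where it had a peak, and a region qualified if it was closed in the first 2 populations and open in the other 8. Of 476170 merged regions, 1773 qualified, which is 0.372% of all. Open and closed calls chose the regions, so these calls are given below as a description.

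OmniATAC-seq, in which a transposase cuts accessible DNA, was run on wild-type H1 cells, an established human embryonic stem cell line, with 50000 cells per library. The 10 populations have 3 biological replicates each, and each population is represented here by 1 peak list, so no difference below has a replicate check and none was tested. The undifferentiated cells (hPSC, day 0) were compared with definitive ectoderm (DE, day 1), made in 1 day with the TGF-beta receptor inhibitor A8301 (1 uM), the BMP receptor inhibitor LDN193189 (100 nM), the MEK inhibitor trametinib (250 nM) and the WNT secretion inhibitor C59 (1 uM). From DE, anterior neural ectoderm (aNE, day 2) was made with A8301 (1 uM), LDN193189 (100 nM), C59 (1 uM) and the survival aid thiazovivin (1 uM). Posterior neural ectoderm (pNE, day 2) was made with A8301 (1 uM), LDN193189 (100 nM), the retinoid receptor agonist TTNPB (50 nM), FGF2 (20 ng/ml), the tankyrase inhibitor XAV939 (1 uM) and thiazovivin (1 uM). Both were then carried to day 4 in telencephalon, midbrain or hindbrain medium, which gave aNE_T, aNE_M, aNE_H, pNE_T, pNE_M and pNE_H. All 8 later populations share the day 1 treatment, and all come from 1 cell line.

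Blocking TGF-beta and BMP signalling steers pluripotent cells toward neural ectoderm, and retinoids with FGF give that ectoderm a posterior character. Accessible regions far from genes are often enhancers, where transcription factors such as the SOX, POU, ZIC and MEIS families bind in neural progenitors. Most promoters, in contrast, are accessible in many cell types.

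The lists held between 162041 (aNE) and 302355 (pNE_H) peaks on these chromosomes, and their read depth is unknown. A peak within 1 kb of a gene end was present in every list for the 5 neural ectoderm, 4 forebrain and 5 hindbrain markers examined, and also for the 2 surface ectoderm and 2 mesendoderm markers, so these marks do not tell the labelled cell types apart. Of the 4 pluripotency markers, POU5F1, which encodes OCT4, had such a peak in hPSC and DE and in no later list, while NANOG, PRDM14 and ZFP42 had one in all 10 lists. Of the 4 midbrain markers, PAX2 lacked one in pNE_T and the other 3 had one in every list.

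A few of the regions lay on promoters, where their sequence could be read. RefSeq promoter windows of GRCh38.p14, 250 bases before to 50 bases after an annotated start, overlapped 38 of the regions in 43 of 33725 windows (0.128%). Of these windows, 14 belonged to protein-coding genes and 29 to long noncoding RNAs. The 250 bases before the start are shown for 5 of the 14, namely the transcription factor genes ZEB2, VAX1, LHX3 and MEIS3 and the melanin pathway gene DCT, chosen for their known roles after their values were seen from the 11 windows into which the stretch covered by the peaks of all 8 later lists reaches. Capitals mark that stretch, and each sequence runs 5′ to 3′ toward its gene. All 5 genes lie on the minus strand, at chr2:144520120-144520369, chr10:117138271-117138520, chr9:136201675-136201924, chr19:47422234-47422483 and chr13:94479683-94479932 in that order.
ZEB2: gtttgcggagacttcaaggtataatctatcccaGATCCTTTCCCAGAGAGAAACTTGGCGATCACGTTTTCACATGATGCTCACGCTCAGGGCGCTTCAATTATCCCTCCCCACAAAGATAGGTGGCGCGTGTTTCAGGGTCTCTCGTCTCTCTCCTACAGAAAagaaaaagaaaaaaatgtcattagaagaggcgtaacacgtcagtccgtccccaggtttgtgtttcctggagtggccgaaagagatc
VAX1: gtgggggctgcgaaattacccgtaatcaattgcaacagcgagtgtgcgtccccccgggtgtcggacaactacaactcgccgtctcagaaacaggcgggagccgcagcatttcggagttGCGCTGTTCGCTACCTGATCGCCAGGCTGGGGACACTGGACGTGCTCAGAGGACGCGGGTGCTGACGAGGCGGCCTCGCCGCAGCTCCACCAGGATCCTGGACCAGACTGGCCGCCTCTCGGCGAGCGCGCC
LHX3: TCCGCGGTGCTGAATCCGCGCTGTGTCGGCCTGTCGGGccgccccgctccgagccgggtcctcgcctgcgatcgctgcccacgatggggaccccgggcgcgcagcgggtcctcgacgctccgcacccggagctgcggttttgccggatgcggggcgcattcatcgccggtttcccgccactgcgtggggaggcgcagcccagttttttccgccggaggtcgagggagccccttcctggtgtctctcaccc
MEIS3: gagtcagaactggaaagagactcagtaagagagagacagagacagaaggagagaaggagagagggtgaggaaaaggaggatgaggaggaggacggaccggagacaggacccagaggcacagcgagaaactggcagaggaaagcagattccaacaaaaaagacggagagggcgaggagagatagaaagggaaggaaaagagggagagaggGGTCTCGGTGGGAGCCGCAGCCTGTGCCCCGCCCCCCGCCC
DCT: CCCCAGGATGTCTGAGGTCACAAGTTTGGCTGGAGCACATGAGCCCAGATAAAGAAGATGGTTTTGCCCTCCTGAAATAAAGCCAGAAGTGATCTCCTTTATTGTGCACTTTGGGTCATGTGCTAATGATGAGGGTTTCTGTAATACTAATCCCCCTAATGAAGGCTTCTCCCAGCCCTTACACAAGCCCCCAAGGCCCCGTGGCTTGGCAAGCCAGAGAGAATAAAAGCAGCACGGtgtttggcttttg

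The ZEB2 region (chr2:144520050-144520622) spanned the annotated start of this gene, whose zinc finger repressor acts in early neural ectoderm. Its peaks covered 167 bp in aNE and 321 bp in pNE. Day 4 peaks reached 206 bp in aNE_T, 435 bp in aNE_M and 519 bp in aNE_H, then 269 bp in pNE_T, 514 bp in pNE_M and 573 bp in pNE_H. Day 4 widths are given in this order from here on, telencephalon, midbrain, hindbrain, first after aNE and then after pNE. The widest ZEB2 peak was thus in pNE_H and the narrowest in aNE. Its capitals hold 1 ACAAAG, the core of the SOX motif, 138 to 133 bases before the start.

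VAX1 encodes a homeodomain factor of the ventral forebrain. Its region (chr10:117138221-117138471) was short and even, with 212 bp in aNE, 224 bp in pNE, 190, 241 and 147 bp after aNE, and 153, 176 and 197 bp after pNE. A peak of hPSC or DE lay 229 bp away, so chromatin next to it was accessible earlier. None of the 18 motifs searched occurs in the VAX1 sequence shown.

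LHX3, a LIM homeodomain gene of motor neurons, had 128 bp of peak in aNE, 205 bp in pNE and between 180 bp (aNE_H) and 366 bp (aNE_T) on day 4, and the nearest early peak, one of hPSC or DE, was 554 bp away. MEIS3, a cofactor of HOX proteins in the hindbrain, had 296 bp in aNE, 506 bp in pNE, 171 bp in aNE_T and 647 bp in pNE_T. At MEIS3 the other day 4 peaks covered 416 to 561 bp, so aNE_T was the lowest. The DCT region covered 336 bp in aNE and 631 bp in pNE, with 895, 904 and 552 bp in the aNE-derived and 840, 348 and 602 bp in the pNE-derived lists of day 4. Its capitals hold an AGGTCA (236 to 231 bases before the start), an AGATAA (204 to 199) and a TAATCC (103 to 98).

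SIX3, a homeodomain factor that defines the anterior forebrain, also had a region at its start (chr2:44941581-44942109), 143 bp from the gene end by midpoint. Its aNE peak covered 337 bp and its pNE peak 292 bp. On day 4 the peaks covered 529, 422 and 323 bp after aNE but 293, 132 and 118 bp after pNE. All 3 aNE-derived peaks were wider than all 3 pNE-derived peaks at SIX3, as at 3.27% of the whole set.

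Over all 43 promoter windows, 18 motifs were searched on both strands. The windows lie on 38 regions, and the noncoding gene LOC101927711 enters with several overlapping windows. They are therefore not independent, though the interval below treats them so. The MEIS motif TGACAG occurred in 15 of 43 windows (34.9%, exact 95% interval 21.0 to 50.9%, which covers counting error only), against 15.8% of all windows. ACAAAG occurred in 12 (27.9%) against 16.0%, and AGGTCA, the hexamer site of NR2F and retinoic acid receptors, in 11 (25.6%) against 13.8%. Higher too were the AP-1 motif TGANTCA (16.3% against 7.67%) and the GATA motif AGATAA (18.6% against 10.4%). Lower were the ZIC motif CAGCAGG (6.98% against 10.5%), the OTX motif TAATCC (4.65% against 6.37%) and the LHX motif TAATTA (2.33% against 4.91%). The proneural E-box CAGCTG was close, at 20.9% against 18.0%. The GC box GGGCGG was at 8 of 43 (18.6%) against 45.0% of all windows. The octamer ATGCAAAT, which POU factors bind, was found in 0 of 43 windows and in 1.75% of all. The exact 95% upper limit for that 0 is 8.22%, above the share of all windows, so it does not show a lack.
Base composition differed too, as the mean GC content was 50.4% in the 43 windows and 57.5% over all. The 102 promoter windows at regions that opened in DE and were then kept had 48.9% GC, with TGACAG in 26.5%, ACAAAG in 25.5%, AGGTCA in 13.7% and GGGCGG in 9.80%. The part of base composition in the shares was not tested. With peaks at or above the median width of their list, TGACAG was in 11.6%, ACAAAG in 16.3% and GGGCGG in 39.5% of 43 windows. With every list cut to its widest peaks, as many as in the shortest list, AGGTCA was in 11.4% of 70 windows. None of these 4 shares was stable.

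Few of the regions lay at the ends of genes. Of the 1773, 36 (2.03%, exact 95% interval 1.43 to 2.80%) had their midpoint within 1 kb of an end of a protein-coding gene, against 5.00% of all merged regions and 17.4% of the 78808 regions open in all 10 lists. Within 5 kb the shares were 7.56% and 13.2% for the regions described and for all merged regions. The median distance to a gene end was 68.0 kb against 43.4 kb over all regions. Regions that opened in DE and were kept in all later lists, 5493 in number, gave a like share of 1.80% within 1 kb and a median distance of 61.7 kb. With peaks at or above the median width of their list, 3.52% of the regions that met the rule were within 1 kb, against 7.31% of all regions merged in that way. When a list counted as open only where its peaks covered at least 50% of a region, the direction turned, with 5.58% within 1 kb against 5.00% of all and 50.9% in gene bodies against 50.0%. Of the 1363 regions that met the rule in that form, 1221 held an early peak and 142 were among the 1773.

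**Figure D1:**
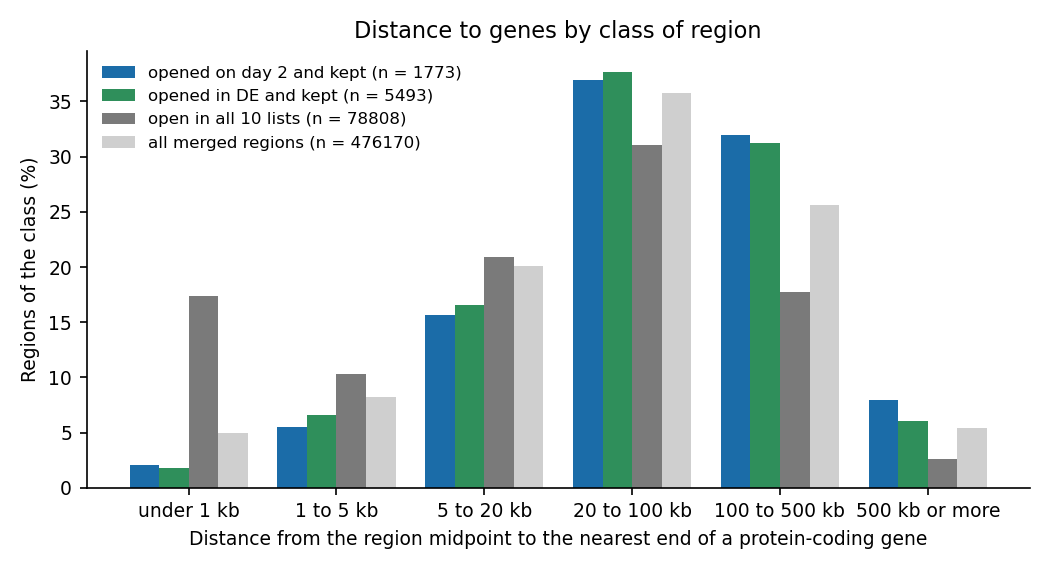
Share of regions (%) by distance from the region midpoint to the nearest end of a protein-coding gene, for regions opened on day 2 and kept, regions opened in DE and kept, regions open in all 10 lists and all merged regions. The first class sits at 2.03% under 1 kb, where regions open in all 10 lists reach 17.4%, and at 31.9% from 100 to 500 kb.

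Protein-coding gene bodies held 777 of the 1773 (43.8%), against 50.0% of all merged regions, and 41.3% lay outside any annotated gene, against 36.4%. Of those inside protein-coding genes, 54.2% were in genes of 200 kb or more, against 46.0% over all regions. Regions opened in DE and kept had 47.4% in protein-coding genes and 37.7% outside any gene. Regions first open on day 4, in all 6 lists, had 45.9 and 39.7%. Of those inside genes, 53.8 and 53.4% were in genes of 200 kb or more. The higher share in long genes was thus not particular to the set. Chromosome 4 had the highest share of its merged regions in the set (0.537%, 156 regions) and chromosome 17 the lowest (0.215%, 34 regions).

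The regions were wider than most, with a median merged width of 649 bp against 306 bp over all merged regions. Merging peaks of 8 lists makes a region at least as wide as the widest of them. A stretch covered by the peaks of all 8 later lists existed in 1618 (91.3%), with a median length of 134 bp. In the other 155 the peaks were joined through partial overlaps. In 1362 regions (76.8%) each later list had exactly 1 peak. Early peaks were near some of them: 213 (12.0%) had a peak of hPSC or DE within 500 bp, and the median gap to one was 3.07 kb.

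Just outside the rule lay 4317 regions that were closed in hPSC and DE and open in 7 of the 8 later lists. Of these, 2956 (68.5%) lacked a peak in aNE alone. A further 372 lacked aNE_H, 304 aNE_T, 259 pNE_T, 251 pNE_M, 86 pNE, 50 aNE_M and 39 pNE_H. The most were thus lacking in the shortest list (aNE, 162041 peaks) and the fewest in the longest (pNE_H, 302355). The part of list length in these counts was not tested. On the other side of the threshold, 87088 regions were open in all 8 later lists, and 78808 of them (90.5%) were open in hPSC and DE as well, 5493 (6.31%) in DE but not hPSC and 1014 (1.16%) in hPSC but not DE. The 2956 regions that lacked aNE were like those in the set in position, with 1.93% within 1 kb of a gene end and 44.0% in a protein-coding gene.

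Regions gained in both day 2 lists were open on day 4 more often than regions gained in 1 of them. This comparison uses the same open and closed calls that chose the set, so it is a description. Regions called in both day 2 lists may also be easier to call in other lists, which was not tested. Regions closed in hPSC and DE and open in both aNE and pNE numbered 5842. All 6 day 4 lists had a peak at 1773 of them (30.3%, exact 95% interval 29.2 to 31.5%), 5 lists at 1275, 4 at 942, 3 at 1013, 2 at 491, 1 at 210 and none at 138. Of 32566 regions gained in pNE and closed in aNE, 2956 (9.08%) had a peak in all 6, and of 6084 gained in aNE and closed in pNE, 86 (1.41%) did. For comparison, 76.1% of the 103540 regions open in both day 2 lists and in both earlier ones had a peak in all 6. Over the 5842, the share still open was 65.3, 72.5 and 60.2% after aNE and 73.8, 69.6 and 86.8% after pNE. The pNE_H list, the longest, was open at most of them and aNE_H at fewest.

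**Figure D2:**
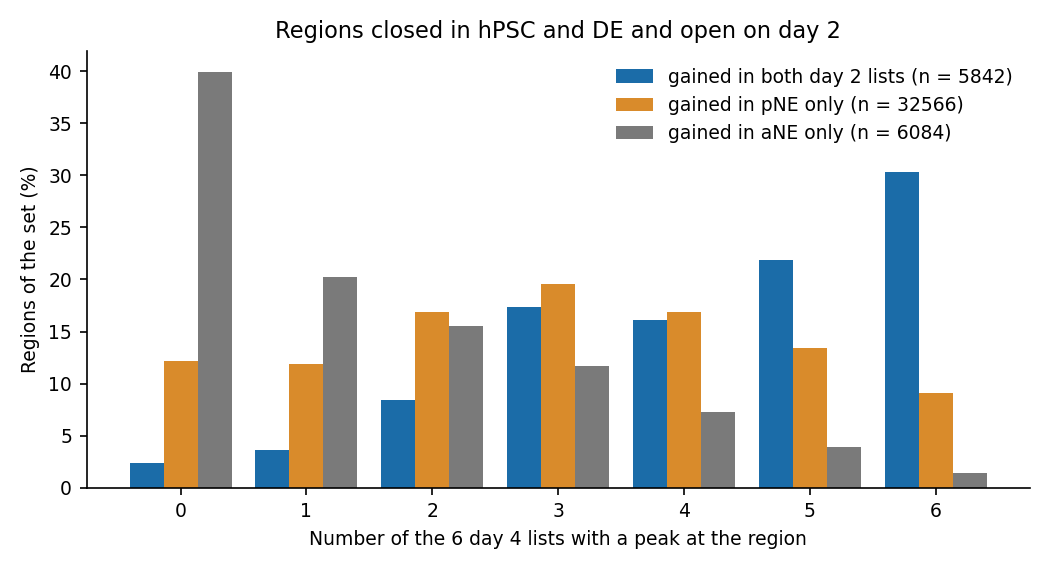
Regions closed in hPSC and DE and open on day 2, by the number of the 6 day 4 lists with a peak there, as a share (%) of the 5842 gained in both day 2 lists, the 32566 gained in pNE only and the 6084 gained in aNE only. The first set is highest at 6 lists (30.3%), the last at 0 lists.

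The peaks themselves differed in width between lists. The rule did not use width, but each region had to hold a called peak, so width and the calls are not independent. The aNE median was 203 bp and the pNE median 331 bp. Day 4 medians were 322, 358 and 306 bp after aNE and 393, 346 and 504 bp after pNE. The aNE peak was the narrowest of the 8 at 797 regions (45.0%) and the pNE_H peak the widest at 728 (41.1%). The aNE list had the widest peaks of the 10 over its whole length, with a median of 309 bp, so its peaks at these regions were narrow for that list. The pNE_H peaks, with a median of 284 bp over that list, were wide at these regions. Of the 2 lists in which the set first opened, only aNE was the narrowest, as the pNE median was above those of aNE_T and aNE_H. Regions opened in DE and kept were narrowest by median in their own first list, DE, at 261 bp. Their later medians ran from 301 bp (aNE) to 499 bp (pNE_H). The part of the rule in these widths was not tested.

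**Figure D3:**
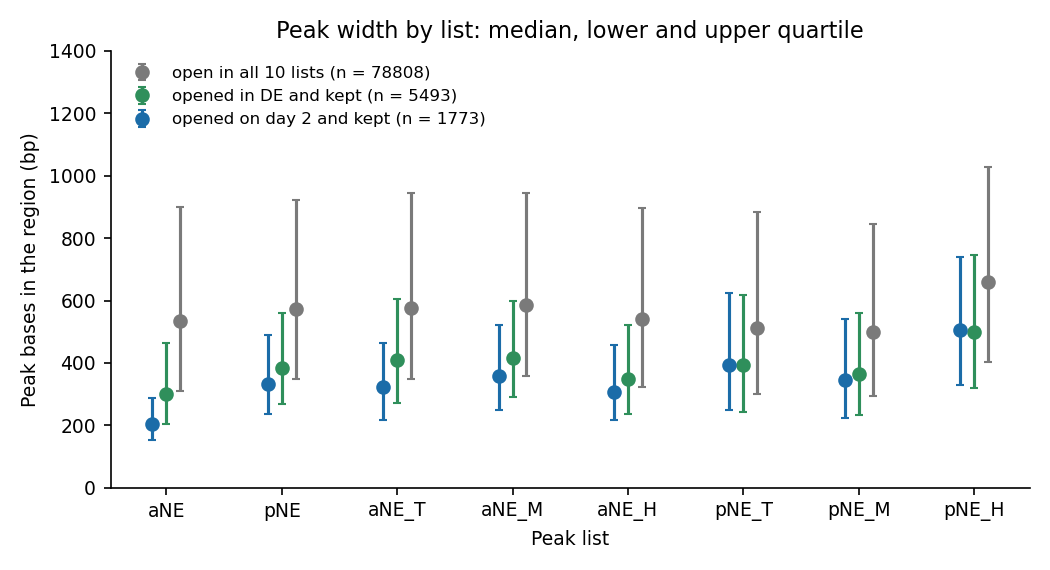
Peak bases (bp) per region in each later list, as points for the median with bars from the lower to the upper quartile, for regions opened on day 2 and kept, regions opened in DE and kept, and regions open in all 10 lists. The aNE point of the first class is the lowest at 203 bp and its pNE_H point the highest at 504 bp, and each point lies below that of the regions open in all 10 lists.

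From aNE to its day 4 descendants the peak was wider at 76.3% of regions in aNE_T, 81.7% in aNE_M and 73.8% in aNE_H. These shares were 72.5, 71.9 and 59.1% at regions opened in DE and kept, and 60.2, 60.4 and 50.8% at regions open in all 10 lists. From pNE it was wider at 62.3% in pNE_T, 53.2% in pNE_M and 79.9% in pNE_H, against 52.6, 45.6 and 70.4% in the DE class and 41.4, 34.6 and 67.0% in the class open in all 10. On day 2 the pNE peak was wider than the aNE peak at 81.2% of regions, against 66.4 and 56.5% in those classes.

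Day 4 widths were also compared between the 2 lineages. At 343 regions (19.3%) all 3 pNE-derived peaks were wider than all 3 aNE-derived ones, and at 58 (3.27%) the reverse held. The shares were 12.3 and 6.24% at regions opened in DE and kept, and 5.89 and 6.86% at regions open in all 10 lists. Pair by pair, the pNE-derived peak was the wider at 62.1% of regions in telencephalon medium, 45.2% in midbrain medium and 78.6% in hindbrain medium. These shares were 48.4, 39.2 and 72.9% at regions opened in DE and kept, and 36.8, 30.9 and 71.2% at regions open in all 10 lists. In midbrain medium the aNE-derived peak was thus more often the wider in each class. In each medium the share was highest at the regions described. Both hindbrain peaks were wider than both telencephalon peaks at 22.3% of the regions, and the reverse held at 11.2%. These shares were 20.6 and 15.3% at regions opened in DE and kept, and 24.9 and 12.1% at regions open in all 10 lists. With 1 list for each population, the lineage and the depth of its libraries cannot be told apart.

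Some regions had broad peaks in each of the 8 later lists. The 6 regions with the largest minimum width lay inside NCALD, which encodes the calcium sensor neurocalcin delta, inside RIPOR3, and between protein-coding genes near ITGA1, SNTN, CHSY3 and OGFRL1. The region on the ITGA1 side (chr5:52419080-52420095) lay 368329 bp from that integrin gene. It was covered over 724 bp in aNE, 845 bp in pNE, 859, 968 and 797 bp after aNE, and 951, 903 and 936 bp after pNE. All 8 lists shared 724 bp of it, the largest such stretch in the set. The region 130871 bp from CHSY3 (chr5:130316869-130318142), a chondroitin synthase gene, had 689 bp of peak in aNE and between 1090 and 1274 bp in the other 7 lists. The nearest peak of hPSC or DE was 32067 bp from the first and 16307 bp from the second.

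Members of the set were spread thinly over genes. Of 19126 protein-coding genes, 1491 (7.8%) had at least 1 within 50 kb, and by nearest gene end 1135 genes had 1, 201 had 2, 45 had 3, 22 had 4, 1 had 5 and 1 had 8. Grouped by position instead, with gaps of at most 50 kb, 1589 stood alone, 162 formed 81 pairs, 18 formed 6 triples and 4 formed 1 chain.

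The gene with 8 was TENM3, a teneurin that guides synaptic partner choice, with 8 of the 599 merged regions nearest to it (1.34%). Of these 4 lay inside the gene, and the other 4 were between 619958 and 1850165 bp from it. CDH2, which encodes N-cadherin, the cadherin that replaces E-cadherin in neural ectoderm, had 5 of 264 (1.89%). One of them lay in the gene (chr18:28115044-28115593), with 289 bp in aNE, 399 bp in pNE, 398, 518 and 469 bp after aNE and 534, 489 and 516 bp after pNE. The aNE peak was the narrowest there, and the 7 others lay close together. The remaining 4 at CDH2 were 219023 to 1149309 bp away, in sequence with no protein-coding gene at those sites.

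ARHGEF38 had 4 of 33 (12.1%), and these 4 made the single chain, over 43.8 kb of the gene body (chr4:105600996-105644781). Of the 22 genes with 4 regions, this count named those with the fewest merged regions, which favours high shares. By nearest gene end ROBO2 also had 4, of 298 (1.34%), and CDH4 4 of 302 (1.32%). The last region of the chain (chr4:105643983-105644781) had 327 bp in aNE, 605 bp in pNE, 196, 548 and 585 bp after aNE and 671, 651 and 799 bp after pNE. Of 15 merged regions in the span of the chain, 3 were open in hPSC or DE, 4 were in the set, and 4 had a peak in 1 list.

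**Figure D4:**
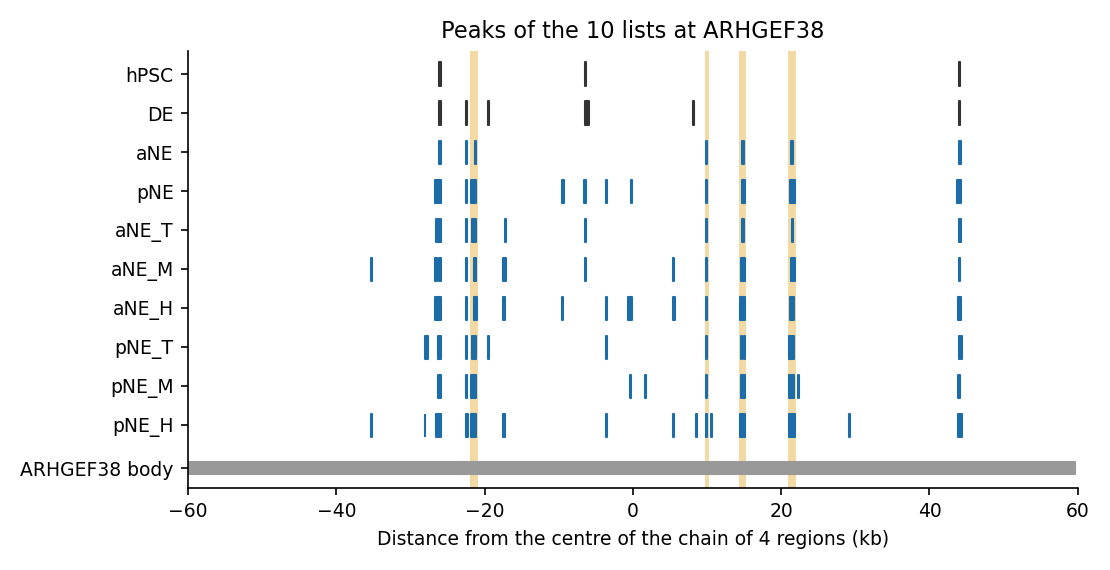
Peaks of the 10 lists (bars, one row for each list) along ARHGEF38, by distance in kb from the centre of the chain of 4 regions, which are shaded, with the gene body in grey. The shaded columns are empty in hPSC and DE and hold a bar in each of the other 8 rows.

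LIN28B, an RNA-binding protein of stem and progenitor cells that blocks let-7 maturation, had 4 of 62 (6.45%), all inside the gene. At the third of them (chr6:105022438-105023050) the peaks covered 401 bp in aNE, 310 bp in pNE, 546, 607 and 321 bp after aNE and 462, 534 and 411 bp after pNE. Named by the same rule were also WDR25 with 4 of 47 and STAC with 4 of 88.
GRIA1, a subunit of AMPA-type glutamate receptors, had 4 of 140, DOK6, an adaptor of receptor tyrosine kinases, 4 of 96, GREB1L 4 of 115 and ANKRD44 4 of 96. The widest of these by minimum was at GREB1L (chr18:21330103-21331669), with 918 bp in aNE, 1068 bp in pNE and 511 bp (aNE_H) to 1479 bp (pNE_H) on day 4, and an early peak lay 314 bp from it.

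Gene lists were then read against the 0.372% of all merged regions. Near axon guidance genes, receptors and ligands that steer growing axons, 16 of 2093 regions within 50 kb were in the set (0.764%), at 10 of 19 genes (52.6%, beside the 7.8% of all protein-coding genes). The 19 genes together held 2093 regions, against 526 for 14 Notch genes, so a gene of this list had more regions that could qualify. Of the 2093, 46.9% were open in hPSC or DE, against 55.7% of all merged regions. Regions opened in DE and kept were also more frequent there, at 41 of 2093 (1.96%) against 1.15% of all. ROBO2, a receptor for Slit proteins, had 4 of 246, PLXNA2, DCC and EFNB2 had 2 each, and EPHB2, EPHA4, ROBO1, EPHB1, EPHA7 and SEMA3A had 1 each. One of the EFNB2 pair (chr13:106440691-106441374), 48.7 kb from this ephrin gene, had even peaks of 676 bp in aNE, 581 bp in pNE, 541, 544 and 527 bp in the aNE-derived lists and 612, 599 and 622 bp in the pNE-derived lists. At one of the DCC pair (chr18:52667065-52668170), inside this netrin receptor gene, the pNE-derived peaks of 1042, 967 and 592 bp were all wider than the aNE-derived peaks of 324, 280 and 240 bp.

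Neural adhesion, filament and progenitor genes had 8 of 919 regions (0.871%), at 5 of 14 genes. CDH4, which encodes R-cadherin, supplied 4 of the 8, and CDH2, CDH11, MAP2 and PTPRZ1 supplied 1 each. No region of the set lay within 50 kb of NES, VIM, FABP7 or NCAM1. The first region at CDH4 (chr20:61370786-61371797) had 392 bp in aNE, 493 bp in pNE, 537, 534 and 502 bp after aNE and 687, 478 and 1006 bp after pNE.

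Neural progenitor transcription factor genes had 2 of 953 regions (0.21%, exact 95% interval 0.0254 to 0.756%, which holds the background) at 3 of 21 genes (14.3%). These were the ZEB2 region above and one 3056 bp from ZIC5 (chr13:99959394-99960423), which also lay within 50 kb of ZIC2, a zinc finger factor of the early neural plate. At ZIC5 the peaks covered 197 bp in aNE, 460 bp in pNE, 214, 487 and 458 bp after aNE and 771, 984 and 993 bp after pNE. The 3 pNE-derived peaks there were wider than the 3 aNE-derived ones, and an early peak lay 365 bp away.
By nearest gene end the same list had 19 of 2971 (0.640%) at 10 genes, so the share lay on the other side of 0.372% when regions were assigned in this way. ZEB2 and NR2F1, an orphan receptor gene, had 4 each, SOX11 3, NR2F2 2, and ZIC5, PAX6, SOX1, MEIS1, POU3F3 and DACH1 1 each. SOX2, ZIC1, LHX2 and MEIS2 had none by either count. The SOX11 regions were 290.2 to 412 kb from the gene, and those at NR2F1 were 374 to 703 kb away. The PAX6 region (chr11:31650829-31651983), 138 kb from the gene and inside the neighbouring ELP4, where regulatory sequence of PAX6 is known to lie, had 543 bp in aNE, 662 bp in pNE, 417, 365 and 515 bp after aNE and 1093, 1110 and 1084 bp after pNE. The pNE-derived peaks at PAX6 were all wider than the others. SOX11, NR2F1 and PAX6 were picked for this account after their values were seen.

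Regional identity genes stayed near the background. Forebrain and midbrain factors had 2 of 572 (0.350%), at SIX3 and PAX5, and hindbrain and retinoic acid response genes 3 of 622 (0.482%). Of the latter, 2 lay in RARB, a retinoic acid receptor gene that retinoids induce, and 1 in FGF3, a hindbrain growth factor gene. The first at RARB (chr3:25229435-25230289) had 240 bp in aNE, 490 bp in pNE, 213, 174 and 132 bp after aNE and 855, 581 and 764 bp after pNE. The second at RARB (chr3:25338037-25338872) had 446 and 530 bp on day 2, then 445, 275 and 126 bp in the aNE-derived and 830, 457 and 631 bp in the pNE-derived lists. All pNE-derived peaks were wider than all aNE-derived ones at both RARB sites, a pattern found at 19.3% of the whole set. The FGF3 region had 643 bp of peak in aNE and 632 bp in pNE, with 164, 366 and 244 bp in the aNE-derived and 695, 550 and 853 bp in the pNE-derived lists. At PAX5 neither lineage was wider throughout, with 399, 618 and 630 bp after aNE and 595, 390 and 477 bp after pNE. Of the hindbrain list by nearest gene end, the EGR2 region had all pNE-derived peaks wider, and the IRX2 region did not.

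WNT pathway genes had 3 of 776 (0.387%), at FZD3, SFRP2 and WNT1. The SFRP2 region (chr4:153764586-153765521), 15.5 kb from this secreted WNT antagonist gene, was wide throughout, at 807 bp in aNE, 766 bp in pNE and 520 bp (aNE_H) to 924 bp (pNE_H) on day 4. Notch pathway genes had 0 of 526 regions, at 0 of 14 genes.

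Outside the neural lists, pluripotency genes had the highest share, 5 of 458 (1.09%), of which LIN28B gave 4 and SALL4 1, and the other 13 genes matched gave 0. Of these 5 regions, 3 had an early peak close by, at 408, 496 and 403 bp, and with no early peak allowed within 500 bp the share was 0.437%, beside 0.328% of all regions. Surface ectoderm and neural crest factors had 3 of 721 (0.416%), mesendoderm genes 2 of 422 (0.474%), and blood, liver and muscle genes 0 of 359. The surface ectoderm region near KRT8 and KRT18, epithelial keratin genes, had 928, 907 and 526 bp in the pNE-derived lists against 245, 148 and 145 bp in the aNE-derived ones. Taking 3 regions as the limit that a count of 0 allows, the share could be up to 0.570% near Notch genes and 0.836% near blood, liver and muscle genes, counting error only, both above the background. When every list was cut to its widest peaks, as many as in the shortest list, 0.697% of regions met the rule and the pluripotency share fell to 0.289%, below it, while that of the axon guidance genes was 1.38%.

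**Figure D5:**
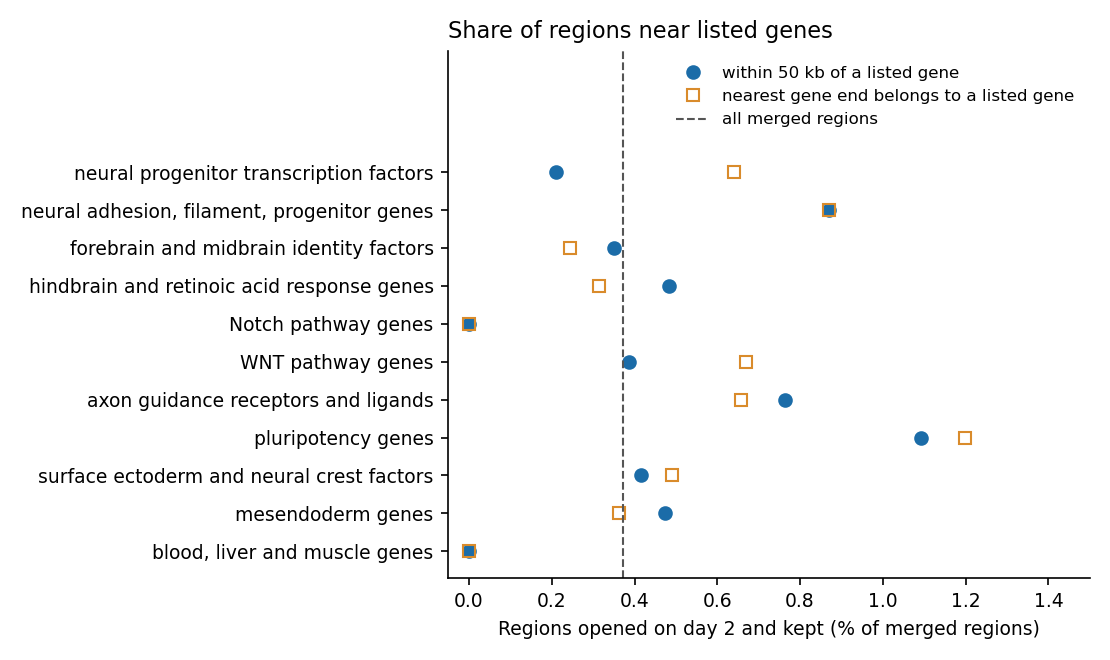
Regions opened on day 2 and kept, as a share (%) of the merged regions at each gene list, by a 50 kb window (circles) and by nearest gene end (squares), with the share over all merged regions as a dashed line at 0.372%. Neural progenitor transcription factors lie at 0.21% by window and 0.640% by nearest end, on either side of the line.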

How the data were processed

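Chromatin accessibility was measured by OmniATAC-seq in 30 libraries, 3 for each of 10 populations. The authors deposited 1 peak list for each population, which holds start and end positions in bp and no counts, score or p-value. The submitters' processing notes name Bowtie2, MACS2, bedtools and the build hg38; versions, thresholds and how the 3 replicates were combined are not given in the sources used here, and a different threshold between lists would move every open or closed call. Medium details for day 4 are not given in full in the sources used here. No list holds read depth, so precision is limited by the lists themselves.

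Peaks were merged with numpy 2.4.6 and pandas 2.3.3 in Python 3.11.15. A peak's width is the number of bases of its list in the region. Gene bodies and promoter windows came from RefSeq tables of GRCh38.p14; of 185 listed gene symbols, 179 were matched. The region midpoint was set against both ends of each protein-coding gene. The member regions' own sequence was not analysed here, so the 18 motifs were searched in the promoter windows, with no base that differs from the motif allowed. Named genes are listed genes with at least 3 regions within 50 kb, the 10 protein-coding genes with the most regions by nearest gene end (ties by fewer merged regions), and the genes with the largest share among those with at least 5, which were CDH2 and TENM3; named regions are the 6 with the largest minimum width and, for each neural progenitor transcription factor gene, the widest within 50 kb. Examples beyond this rule, among them SIX3, RARB, FGF3, SFRP2, EFNB2, DCC, KRT8, GREB1L, VAX1, LHX3, MEIS3 and DCT, were chosen after their values were seen. The regions and the gene lists were chosen with earlier results of these data known. With 1 list for each population no test was possible. Intervals are exact (Clopper-Pearson) at 95% and cover counting error only. Beside a count of 0 regions near a gene list the limit is instead 3 regions over the number examined. The code was tested on simulated lists, where it recovered 60 of 60 regions that met the rule. The alternatives are other definitions of open, other peak sets, the rule without each list, other distances, and chromosomes X and Y.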

Additional observations from a re-analysis of the deposited data

Results flagged for a closer look

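The rule was set on chromosomes 1 to 22. On chromosome X, which none of the comparisons above used, 53 of 16790 merged regions met the same rule (0.316%, beside 0.372% on chromosomes 1 to 22). On chromosome Y 1 of 484 did.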

How the results depend on the processing

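No paired analysis was possible because each population has 1 list and no values per replicate; leaving out replicates and a motif window of another length were not run for the same reason and for want of the regions' sequence. The number of regions, 1773, stayed within 1.5 times of itself except with peaks at or above their list's median width (880) and, chosen after seeing the data, without aNE in the rule (4729). Requiring peaks over at least 50% of a region gave 1363 regions, but it lets narrow early peaks count as closed: 1221 of the 1363 held one and 142 were among the 1773. In that set 5.58% lay within 1 kb of a gene end and 50.9% in gene bodies, both above all regions (5.00 and 50.0%) where the main values were below, 20.8% of the regions gained on day 2 were kept, and median widths were 491 bp (aNE) and 624 bp (pNE_H). With peaks at or above the median width these values were 3.52%, 48.5%, 28.4%, 423.5 bp and 706.5 bp. Within 5 kb the share was 7.56%. With the widest peaks, as many as in the shortest list, 23.4% were kept, widths were 237.5 bp and 570.0 bp, and the share near all listed genes was 0.855% beside 0.697% of all regions (main values 0.523 and 0.372%). With no early peak within 500 bp, 31.8% were kept. Without aNE_T, aNE_H, pNE_T or pNE_M in the rule, 35.6, 36.7, 34.8 and 34.6% were kept, and the pNE_H width was 478 bp without pNE_T and 473 bp without pNE_M. Regions with 1 peak in each later list had a pNE_H width of 438 bp. Without aNE, 12.3% were kept, the pNE_H width was 447 bp and the share near listed genes 1.40% beside 0.993% of all regions; without pNE, 15.6% were kept. For single gene lists, motifs and other lists' widths, 60 of 570 values left the interval of the value reported. Unknown depth limits every closed call.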
